A study of Homo sapiens with 12 samples.

Results

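CEMIP, LTBP2, TGFBI, MGP, NTN4, DKK1 and MMP8 encode proteins that cells secrete or that act on the extracellular matrix. These 7 genes, of 19775 measured, were chosen by the large differences between drug groups that they showed in an earlier analysis of the same arrays. Their differences are therefore given as a description, with no test. The arrays carried 11 probe sets for the 7 genes, and each gene is described by its probe set of highest mean level on the arrays compared, unless another is named.

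RNA of 12 samples labelled PC3, a line from a prostate cancer metastasis, was hybridised to Affymetrix 3-prime expression arrays. Control cells received vehicle by the treatment protocol, although their own labels say untreated. The other groups received 2.5 µM Wee1 inhibitor II, 40 nM 17-AAG, or both at those doses. Wee1 inhibitor II preceded 17-AAG by 24 h, and cells were collected 48 h after 17-AAG. Wee1 is a kinase that restrains CDK1 before mitosis, and 17-AAG inhibits the chaperone Hsp90. All groups grew in DMEM with serum. Each group had 3 arrays, and the submitters removed 1 of them, control replicate 2, for weak signal. The comparisons thus rested on 2 control arrays and 3 arrays of each drug group. Nothing in the labels says that replicates came from separate cultures, so the p-values given for other genes measure the spread among these arrays alone, and that spread may be technical.

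Secreted and matrix proteins set what surrounds a cell and which growth factors reach it. CEMIP breaks down hyaluronan, a large matrix sugar, while MMP8 is a collagenase. LTBP2 belongs to the family of latent TGF-beta binding proteins and sits on microfibrils, and TGFBI is a matrix protein named for its induction by TGF-beta. MGP is a vitamin K-dependent Gla protein that restrains calcification and binds BMPs, NTN4 is a netrin of basement membranes, and DKK1 blocks the Wnt co-receptors LRP5 and LRP6.

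Several of the members started near or under the middle of the array scale, so signals are given before differences. A signal is the deposited linear intensity, and the median signal of all probe sets on the 11 arrays lay between 17.7 and 23.1. Replicate spread depended on the level: by classes of mean log2 signal, the typical (median) replicate SD in log2 units was 1.02 up to a level of 4, 0.372 from 4 to 6, 0.168 from 6 to 8 and 0.106 from 8 to 10. No detection calls were used, so a signal under the array median shows a low value and not the presence of a transcript. In bulk RNA, fewer cells of one kind and less RNA per cell cannot be told apart.

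The labelled cell type was checked against its markers. Genes of the pigment cell lineage were bright on all 11 arrays: MLANA at 2865 to 9916, SOX10 at 1290 to 1975 and TYRP1 at 11119 to 15390. HOXB13, a prostate lineage gene, lay at 2.14 to 11.3, and the epithelial genes EPCAM, KRT8, KRT19, CDH1 and GRHL2 each stayed at or under 45.5. The other genes of that 8-gene list were brighter, KRT18 at 453 to 649.7 and ESRP1 at 142 to 728. CTNNA1 and STAT3, which are known to be deleted in PC3, lay at 2559 to 5039.7 and 819 to 1296. Control replicate 2 differed in most of these genes, with MLANA at 2.67, SOX10 at 5.54, CTNNA1 at 1.57, STAT3 at 7.54, HOXB13 at 2087, EPCAM at 1096, KRT8 at 615 and KRT18 at 2238. Not all epithelial genes were high on it: KRT19 was at 1.58, CDH1 at 5.55 and ESRP1, at 48.5, below all 11 arrays. In their pigment genes, HOXB13, CTNNA1 and STAT3 the 11 arrays thus went against the PC3 label, and control replicate 2 stood apart from them, with a Pearson r of 0.825 to 0.833 across probe sets against 0.913 to 0.936 among the 11. DNAJB1, a heat shock gene that Hsp90 inhibitors usually raise, had signals of 1192 in controls, 725 with Wee1 inhibitor II, 510 with 17-AAG and 889 with both drugs. It therefore stood lowest on the arrays labelled 17-AAG alone. DNAJB1 was the only heat shock gene checked here, which cannot settle the drug labels, so directions for 17-AAG rest on the labels.

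Promoter sequences were taken from RefSeq on GRCh38.p14 for the 250 bases before the gene start. Members were matched by gene ID, which found 6 of the 7, and MGP was not matched. They are shown for CEMIP, DKK1 and MMP8, the members with the clearest signals, so that the stretch next to each start can be read beside the values. The CEMIP stretch is chr15:80779120-80779369 on the plus strand, that of DKK1 is chr10:52314031-52314280 on the plus strand, and that of MMP8 is chr11:102724955-102725204 on the minus strand, each written 5′ to 3′ in the direction of its gene. Capitals mark matches to the motifs searched.
CEMIP: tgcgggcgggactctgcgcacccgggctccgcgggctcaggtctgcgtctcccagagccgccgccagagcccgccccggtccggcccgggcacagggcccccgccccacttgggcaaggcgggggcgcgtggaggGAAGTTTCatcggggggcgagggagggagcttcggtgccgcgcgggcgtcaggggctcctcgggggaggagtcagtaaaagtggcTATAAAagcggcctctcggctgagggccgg
DKK1: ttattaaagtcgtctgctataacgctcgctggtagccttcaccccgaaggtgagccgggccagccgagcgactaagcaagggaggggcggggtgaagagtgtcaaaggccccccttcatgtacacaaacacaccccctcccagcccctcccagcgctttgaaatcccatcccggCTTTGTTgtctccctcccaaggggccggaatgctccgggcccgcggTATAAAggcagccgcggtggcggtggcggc
MMP8: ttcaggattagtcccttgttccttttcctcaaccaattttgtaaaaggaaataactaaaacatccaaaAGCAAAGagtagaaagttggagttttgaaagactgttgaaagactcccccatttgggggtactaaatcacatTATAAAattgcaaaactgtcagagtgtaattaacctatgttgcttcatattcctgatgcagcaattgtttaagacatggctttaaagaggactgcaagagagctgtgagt

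The search covered 8 motifs on both strands, and none of these contains another. They were the AP-1 site TGANTCA, held by 6.57% of the 35116 RefSeq promoters of the same length, the ATF4 or CEBP composite site TGATGNAA (3.14%), the heat shock element core GAANNTTC (5.78%), the TCF/LEF site CTTTGNT (13.2%), the SMAD box repeat CAGACA (13.6%), the E-boxes CACGTG (6.34%) and CATGTG (9.42%), and the TATA box TATAAA (10.7%). The CEMIP stretch held GAANNTTC at -115 and TATAAA at -30, counted from the gene start. DKK1 held CTTTGNT at -76 and TATAAA at -30. MMP8 held CTTTGNT on the opposite strand at -182 and TATAAA at -110. LTBP2, TGFBI and NTN4 held none of the 8 in this stretch. GC content was 74.4% for CEMIP, 62.8% for DKK1 and 36.4% for MMP8. These matches are letters in a window and were not tested against the signals.

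CEMIP, the hyaluronan-degrading protein, was bright only on the arrays of both drugs among the 11. Its signal was 36.0 and 54.6 in the controls, 19.7, 15.8 and 21.4 with Wee1 inhibitor II, 54.3, 45.6 and 71.0 with 17-AAG, and 346, 391 and 303 with both drugs. The arrays of both drugs lay above all others and those of Wee1 inhibitor II below all others, while control and 17-AAG arrays overlapped. Against control the log2 difference was -1.24 ± 0.25 (SE; 3 arrays against 2) for Wee1 inhibitor II, which is 2.36-fold lower. It was 0.34 ± 0.25 with 17-AAG, and with both drugs it was 2.96 ± 0.25, which is 7.77-fold higher. Both drugs together gave 6.15 times the signal of 17-AAG alone and 18.3 times that of Wee1 inhibitor II alone. Wee1 inhibitor II thus went with a lower signal in the absence of 17-AAG and with a higher one in its presence. If the single-drug log2 differences had added, the signal with both drugs would have been 23.8, against a geometric mean of 345 measured, so the interaction was 3.86 ± 0.33.

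The second CEMIP probe set was dim, with geometric means of 1.56 in controls, 1.60 with Wee1 inhibitor II, 1.28 with 17-AAG and 10.9 with both drugs. It shared the high value with both drugs, at a log2 difference of 2.81 ± 0.66 against control, and its interaction was 3.07 ± 0.89. It did not share the low value with Wee1 inhibitor II, where its difference was 0.03 ± 0.66. The lower CEMIP signal with Wee1 inhibitor II lay within the dim range: with all signals under 32 set to 32, its log2 difference was -0.47, while that for both drugs stayed at 2.96.

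LTBP2, the microfibril protein, was brighter on every array that had Wee1 inhibitor II. Its signal was 17.8 and 3.81 in the controls, 112, 123 and 106 with Wee1 inhibitor II, 40.0, 14.2 and 23.6 with 17-AAG, and 133, 146 and 128 with both drugs. The 6 arrays with Wee1 inhibitor II lay above the other 5, and control and 17-AAG arrays overlapped. The log2 difference against control was 3.79 ± 0.61 for Wee1 inhibitor II, 1.53 ± 0.61 with 17-AAG and 4.04 ± 0.61 for both drugs, or 13.8-fold, 2.89-fold and 16.5-fold higher. Against 17-AAG alone, both drugs gave 2.51 ± 0.55, and against Wee1 inhibitor II alone 0.26 ± 0.55, at 1.20-fold. In the latter comparison all arrays of both drugs lay above those of Wee1 inhibitor II, though they overlapped on the second probe set. The SE pools the spread of all groups, and the SD of log2 signal was 0.11 with Wee1 inhibitor II, 0.10 with both drugs and 1.57 in controls.

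The controls set the size of the LTBP2 values. Without control replicate 1 the log2 difference for Wee1 inhibitor II was 4.90, and without control replicate 3, the dimmer of the pair, it was 2.67. The 17-AAG value moved from 2.64 to 0.42 in the same way, that for both drugs from 5.15 to 2.93, and the interaction, -1.27 ± 0.82 over all 11 arrays, from -2.38 to -0.16. With signals under 32 set to 32 the differences were 1.83 for Wee1 inhibitor II, 0.11 with 17-AAG and 2.09 for both drugs. The second LTBP2 probe set gave 17.3, 47.5, 18.0 and 54.0 for controls, Wee1 inhibitor II, 17-AAG and both drugs, with log2 differences against control of 1.46 ± 0.33, 0.06 ± 0.33 and 1.64 ± 0.33. Both probe sets were thus high with Wee1 inhibitor II, with or without 17-AAG, and the second gave the smaller differences.

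TGFBI, the TGF-beta-induced matrix protein, was lowest with 17-AAG alone. It had signals of 43.1 and 37.8 in the controls, 16.0, 39.0 and 50.4 with Wee1 inhibitor II, 1.91, 3.22 and 2.20 with 17-AAG, and 14.1, 7.94 and 11.5 with both drugs. Wee1 inhibitor II arrays overlapped the controls, 17-AAG arrays lay below all others, and those of both drugs lay between 17-AAG and the rest. The log2 difference against control was -0.36 ± 0.48 for Wee1 inhibitor II, -4.08 ± 0.48 for 17-AAG, which is 17.0-fold lower, and -1.89 ± 0.48 for both drugs, which is 3.71-fold lower. Both drugs gave 4.56 times the signal of 17-AAG alone, and the interaction was 2.55 ± 0.64. All 11 TGFBI signals were at most 50.4, and with the floor of 32 the differences shrank to -0.34 with 17-AAG and -0.34 with both drugs, and the interaction to 0.02 ± 0.22. Its single probe set leaves no other reading of the transcript.

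MGP, the Gla protein, was lowest on the arrays with Wee1 inhibitor II. Its signal was 29.7 and 27.4 in the controls, 2.66, 1.04 and 0.482 with Wee1 inhibitor II, 39.0, 8.50 and 20.4 with 17-AAG, and 0.972, 1.21 and 0.373 with both drugs. The 6 arrays with Wee1 inhibitor II lay below the other 5, with overlap between Wee1 inhibitor II and both drugs and between 17-AAG and control. The log2 difference against control was -4.70 ± 0.86 for Wee1 inhibitor II, -0.60 ± 0.86 with 17-AAG and -5.23 ± 0.86 for both drugs, or 25.9-fold lower with Wee1 inhibitor II and 37.6-fold lower with both. The signal expected from adding the single drugs was 0.730 and that measured was 0.759, an interaction of 0.06 ± 1.15.

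The MGP folds are ratios of signals near the bottom of the scale. With the floor of 32 its differences were 0 for Wee1 inhibitor II, 0.10 with 17-AAG, a turned sign, and 0 for both drugs. The second MGP probe set was dimmer still, at 1.68, 0.423, 0.384 and 0.554 for controls, Wee1 inhibitor II, 17-AAG and both drugs. It placed 17-AAG as low as the others, with log2 differences of -1.99 ± 0.97, -2.13 ± 0.97 and -1.60 ± 0.97 against control. Its controls were at 5.13 and 0.548, so these differences rested largely on control replicate 1. Wee1 inhibitor II (0.227 to 1.04) and both drugs (0.405 to 0.692) overlapped the controls, and 17-AAG arrays were at most 0.513. At such signals the second probe set cannot decide what went with 17-AAG alone.

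NTN4, the basement membrane netrin, was higher on all arrays with Wee1 inhibitor II than on those without. It had signals of 8.77 and 1.24 in the controls, 33.0, 62.8 and 41.4 with Wee1 inhibitor II, 1.01, 2.29 and 0.887 with 17-AAG, and 20.6, 25.2 and 28.7 with both drugs. Arrays of Wee1 inhibitor II alone lay above those of both drugs, which lay above control and 17-AAG arrays, and the last groups overlapped. The log2 difference against control was 3.74 ± 0.76 for Wee1 inhibitor II, -1.38 ± 0.76 with 17-AAG and 2.90 ± 0.76 for both drugs, or 13.4-fold higher, 2.60-fold lower and 7.46-fold higher. Against 17-AAG alone both drugs gave a 19.4-fold higher signal.

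The NTN4 controls lay far apart, and every difference against them moved with the control used. Without control replicate 1 the log2 differences were 5.15 for Wee1 inhibitor II, 0.03 with 17-AAG and 4.31 for both drugs, and without control replicate 3 they were 2.33, -2.79 and 1.49. The interaction was 0.54 ± 1.03 over all arrays, -0.88 without the first control and 1.95 without the other. With the floor of 32 the difference from control was 0.46 for Wee1 inhibitor II and 0 in the other drug groups, and the interaction turned to -0.46. NTN4 had a single probe set.

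DKK1, the Wnt antagonist, differed between all 4 groups with no overlap of arrays. Its signal was 101 and 106 in the controls, 492, 688 and 525 with Wee1 inhibitor II, 12.5, 17.6 and 18.0 with 17-AAG, and 61.9, 48.2 and 70.3 with both drugs. The order from high to low was Wee1 inhibitor II, control, both drugs and 17-AAG. Log2 differences against control were 2.45 ± 0.23 for Wee1 inhibitor II, 5.45-fold higher, -2.71 ± 0.23 for 17-AAG, 6.53-fold lower, and -0.80 ± 0.23 for both drugs, 1.74-fold lower. Adding Wee1 inhibitor II went with a higher signal in either setting, 5.45-fold without 17-AAG and 3.76-fold with it. The signal of both drugs was 59.4 as a geometric mean, compared with the 86.1 that adding the single drugs gives, an interaction of -0.54 ± 0.31. The 3 arrays of 17-AAG alone lay under the floor of 32. With that floor the difference with 17-AAG was -1.69, both drugs against 17-AAG gave 0.89 ± 0.16 in place of 1.91 ± 0.20, and the interaction was -1.55 ± 0.24. DKK1 had a single probe set.

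MMP8, the neutrophil collagenase, was the brightest member in controls and lower with each drug and with both. Its signal was 800.1 and 797 in the controls, 188, 207 and 151 with Wee1 inhibitor II, 215, 228 and 197 with 17-AAG, and 137, 168 and 167 with both drugs. All 9 drug-treated arrays lay below the controls, while Wee1 inhibitor II overlapped each of the other drug groups. The log2 difference against control was -2.15 ± 0.15 for Wee1 inhibitor II, -1.91 ± 0.15 with 17-AAG and -2.35 ± 0.15 for both drugs, or 4.42-fold, 3.75-fold and 5.09-fold lower. Adding the single drugs would give a signal of 48.1, against 157 measured, so the interaction was 1.70 ± 0.21. The second MMP8 probe set gave 384, 83.1, 89.3 and 56.1 in the same order of groups, with differences of -2.21 ± 0.17, -2.10 ± 0.17 and -2.77 ± 0.17 and an interaction of 1.54 ± 0.22. On the second probe set all arrays of both drugs lay below those of Wee1 inhibitor II alone, at -0.57 ± 0.15. On the main one these groups overlapped, at -0.20 ± 0.14. The floor of 32 left the MMP8 values of the main probe set as they were.

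**Figure D1:**
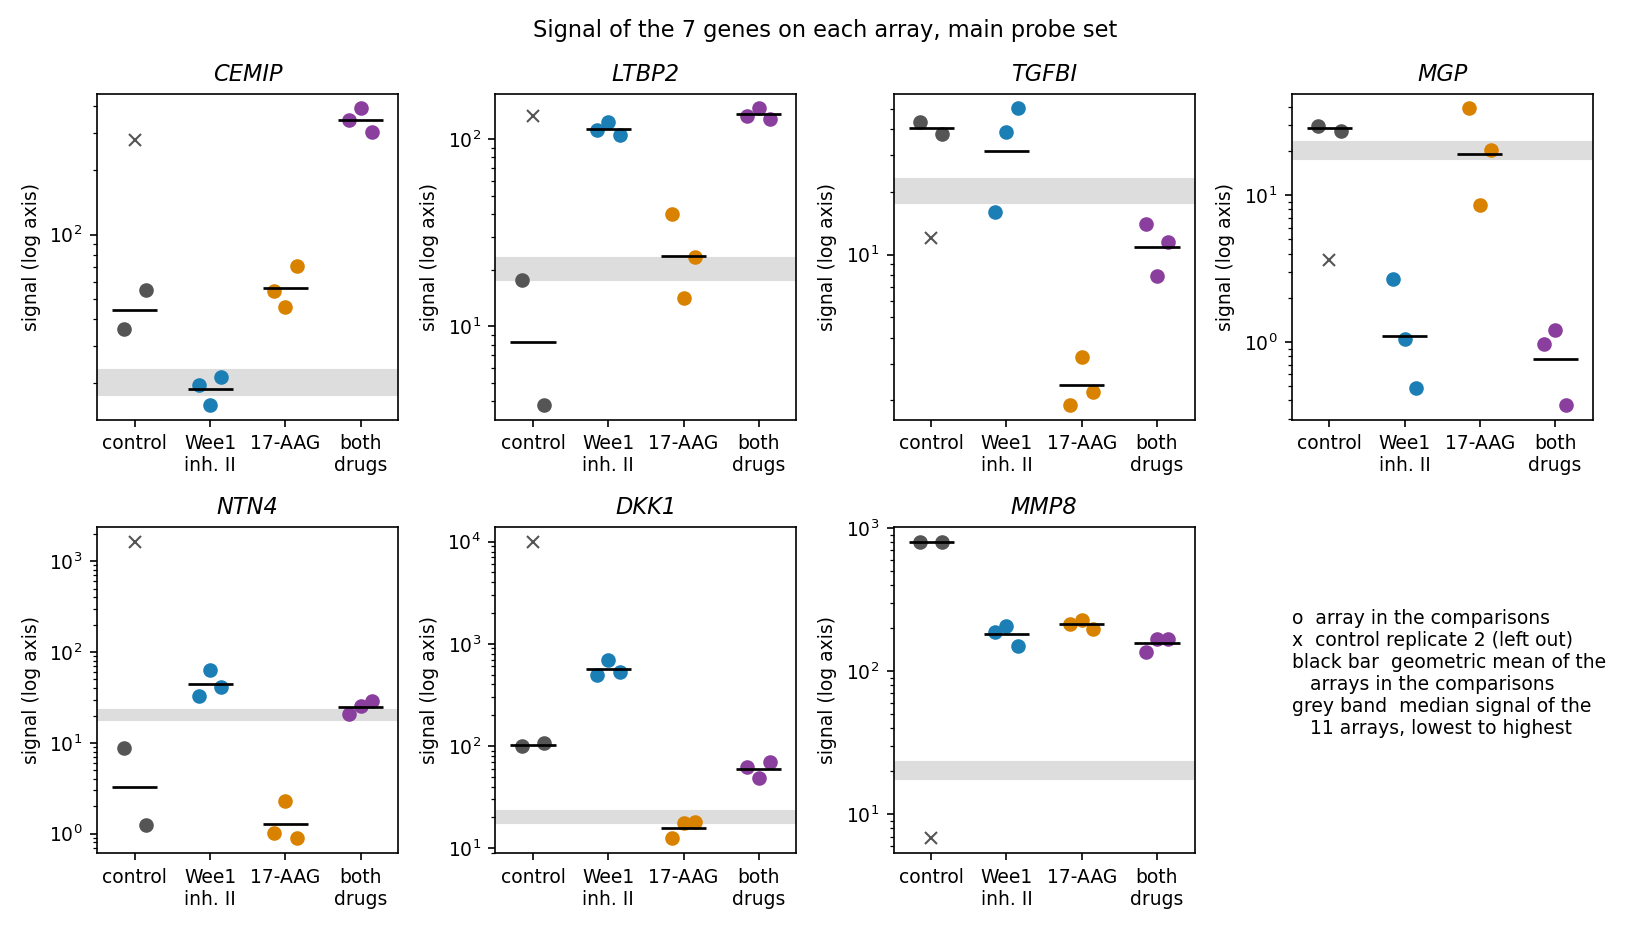
Signal of the main probe set of each of the 7 genes on every array, on a log axis, by group, with bars at the geometric means, crosses for control replicate 2 and a grey band for the array medians of 17.7 to 23.1. CEMIP reached 303 to 391 with both drugs, and MMP8 stood at 797 and 800.1 in the 2 controls compared, above every drug-treated array.

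Counted over the 7 genes, 3 were at least 2-fold higher and 3 at least 2-fold lower than control with Wee1 inhibitor II, where 19.9% of all genes differed 2-fold in either direction. With 17-AAG 1 was higher and 4 were lower (15.3% of all genes), and with both drugs 3 were higher and 3 lower (21.9%). Both drugs against 17-AAG alone gave 5 higher and 1 lower (14.9%), both drugs against Wee1 inhibitor II alone gave 1 higher and 2 lower (13.8%), and Wee1 inhibitor II against 17-AAG gave 4 higher and 2 lower (15.6%). For the interaction, which compares the effect of Wee1 inhibitor II with and without 17-AAG, 3 were past 2-fold upward and 1 downward (22.8%). The genes were chosen on these contrasts, so nothing is read from their counts against those shares. With the floor of 32 the count past 2-fold was 3 with Wee1 inhibitor II (LTBP2, DKK1 and MMP8), 2 with 17-AAG (DKK1 and MMP8) and 3 with both drugs (CEMIP, LTBP2 and MMP8).

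**Figure D2:**
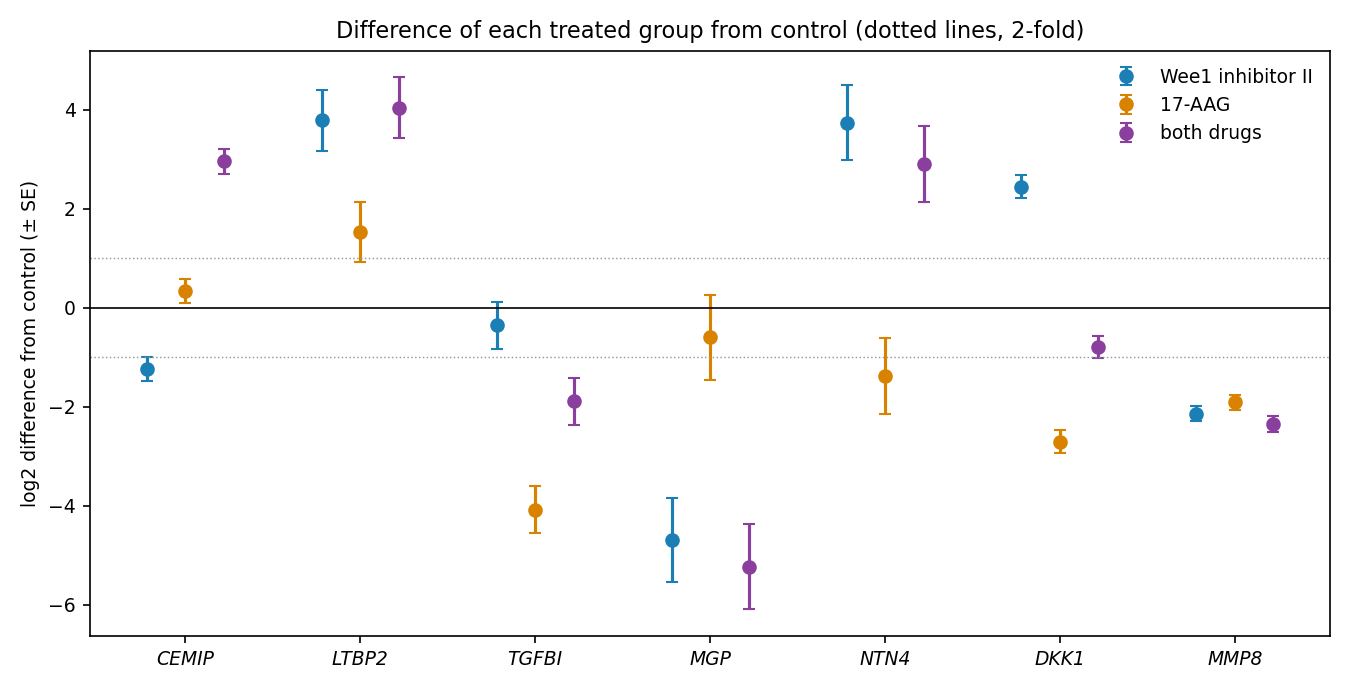
Log2 difference from control of each of the 7 genes in the 3 drug groups, as points with standard errors from the fit over 11 arrays, with dotted lines at 2-fold. DKK1 lay above control with Wee1 inhibitor II (2.45) and below it with 17-AAG (-2.71), MMP8 lay below it in all 3 groups, and MGP had the widest errors (0.86).

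**Figure D3:**
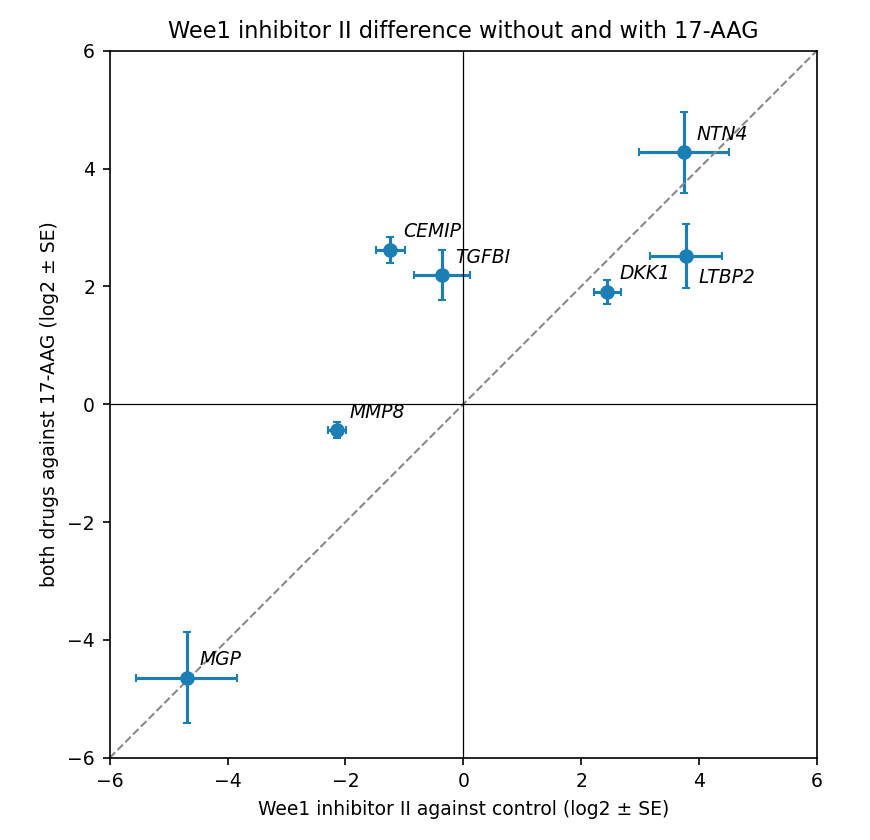
Log2 difference that went with Wee1 inhibitor II in the absence of 17-AAG (horizontal) and in its presence (vertical) for the 7 genes, with standard errors and a line of equal values. CEMIP, on its main probe set, lay at -1.24 and 2.62, in opposite directions, while MGP lay at -4.70 and -4.64, next to the line.

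The members divided by what went with Wee1 inhibitor II. LTBP2, NTN4 and DKK1 were higher with it whether or not 17-AAG was present, at 3.79 and 2.51, 3.74 and 4.28, and 2.45 and 1.91 (log2). MGP was lower in both settings. TGFBI was near control without 17-AAG and 2.19 ± 0.43 higher with it. MMP8 was -2.15 ± 0.15 without 17-AAG and -0.44 ± 0.14 with it. The placing of NTN4, MGP and TGFBI rests on dim signals. With the floor of 32 the values without and with 17-AAG were 0.46 and 0 for NTN4, 0 and -0.10 for MGP, and -0.02 and 0 for TGFBI. LTBP2 stayed at 1.83 and 1.98 with that floor, and DKK1 at 2.45 and 0.89. 17-AAG alone went with lower TGFBI, DKK1 and MMP8 without overlap of arrays, and the arrays of CEMIP, LTBP2, MGP and NTN4 overlapped control.

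**Figure D4:**
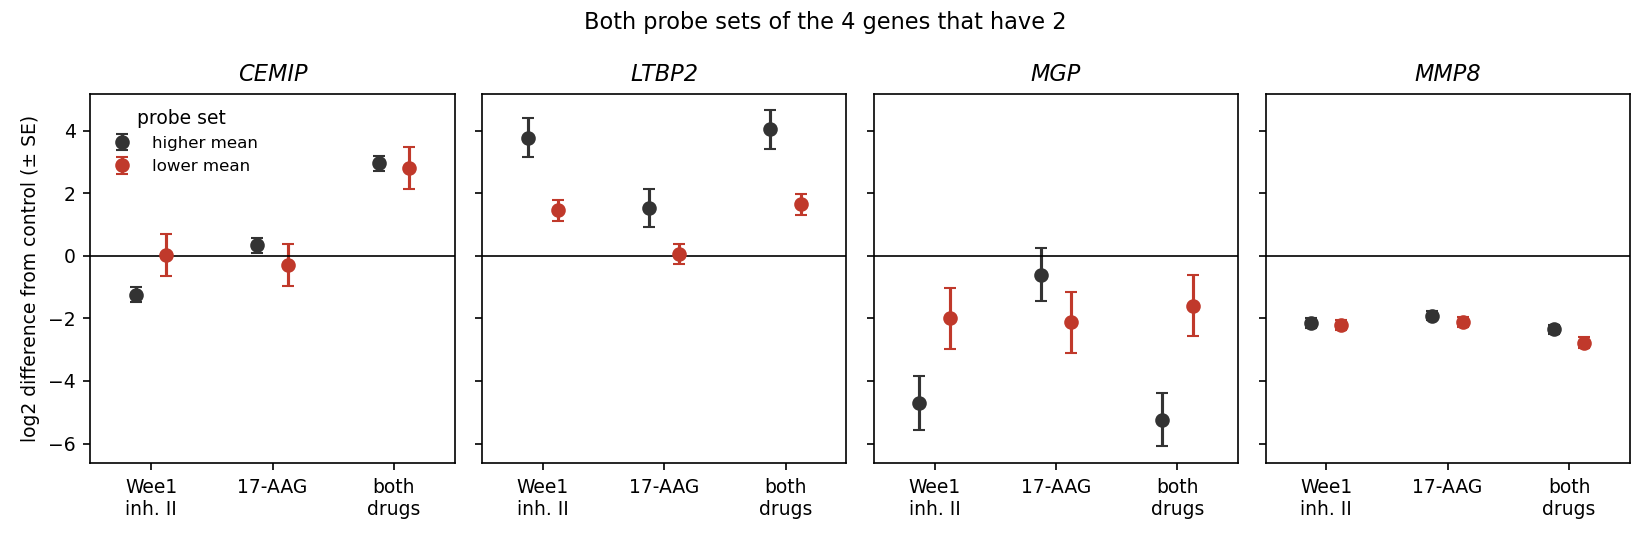
Log2 difference from control, with standard errors, of both probe sets of CEMIP, LTBP2, MGP and MMP8 in the 3 drug groups, the probe set with the higher mean in black and the other in red. The MMP8 probe sets lay close together with Wee1 inhibitor II (-2.15 and -2.21) and less so with both drugs (-2.35 and -2.77). Those of LTBP2 lay apart with Wee1 inhibitor II (3.79 and 1.46).

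Genes with the most similar profile were sought among genes that reached a group signal of at least 100, by Pearson r of log2 signal over the 11 arrays. The r is a description, since the arrays fall into groups and the groups set most of it. For CEMIP they were PPFIA1 (0.984), MCF2L (0.974) and ESRP1 (0.974), and for LTBP2 ING4 (0.978), ZFHX3 (0.977) and TOLLIP-DT (0.975). TGFBI came closest to PIGG (0.949), HEATR1 (0.948) and DNTTIP2 (0.947), MGP to COMTD1 (0.960), OXCT1 (0.959) and SLC67A1-AS (0.959), and NTN4 to ATG7 (0.964), RING1 (0.961) and GTF2H3 (0.959). DKK1 was closest to DPYSL2 (0.989), TMEM43 (0.988) and LPCAT2 (0.984), and MMP8 to SVIP (0.986), MRPL27 (0.978) and PRPF4 (0.977). None of these genes is another member.

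The pathways of the members were then followed through 138 measured genes of 145 listed, in 9 groups by role, tested in limma with Benjamini-Hochberg adjustment over all 19775 genes and called at an adjusted p under 0.05. With Wee1 inhibitor II 33 were called higher and 6 lower than control, where 14.5% and 10.3% of all genes were. With 17-AAG 17 were called higher and 10 lower (9.93% and 6.80%), and with both drugs 22 higher and 11 lower (16.7% and 11.3%). The counts given below for each list stand beside these same shares of all genes. No list was tested as a set, and nothing is read from its counts alone. For the interaction 2 were called positive and 13 negative (4.82% and 6.97%). The median log2 difference of the 138 was 0.47, 0.13 and 0.30 for the 3 drug groups, beside 0.12, 0.01 and 0.11 over all genes. When control and 17-AAG arrays were fitted alone, limma with Benjamini-Hochberg adjustment called 0 of the 138 genes and 0 of all genes, with 39 of the 138 at an unadjusted p under 0.05, so the 17-AAG calls rest on the spread shared across all groups. Without control replicate 3 the 17-AAG count was 13 instead of 27 and the interaction count 9 instead of 15.

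Around CEMIP, 14 of 16 listed genes of hyaluronan synthesis, binding and turnover were measured. HAS2, a hyaluronan synthase, had signals of 859 in controls, 315 with Wee1 inhibitor II, 1408 with 17-AAG and 1133 with both drugs. It fell with Wee1 inhibitor II by 1.45 ± 0.09 on the log2 scale (limma adjusted p = 5.97e-05), rose with 17-AAG by 0.71 ± 0.09 (0.00223), and its interaction was 1.14 ± 0.12 (0.00174). HAS2 was thus, like CEMIP on its main probe set, lower with Wee1 inhibitor II alone than with any other treatment. The second CEMIP probe set did not share that low value. With both drugs against 17-AAG alone the genes parted: HAS2 was lower by 0.31 ± 0.08 (limma adjusted p = 0.032) and CEMIP higher by 2.62 ± 0.22. CEMIP2, a paralog of CEMIP, had signals of 737, 241, 595 and 193 in the order control, Wee1 inhibitor II, 17-AAG and both drugs. It fell by 1.61 ± 0.16 with Wee1 inhibitor II (limma adjusted p = 0.000309) and by 1.93 ± 0.16 with both drugs (8.16e-05), with no counterpart to the high CEMIP signal with both drugs. In the list as a whole 2 genes rose and 3 fell with Wee1 inhibitor II, 1 rose and 1 fell with 17-AAG, and 1 rose and 3 fell with both drugs.

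Around LTBP2, 24 of 25 listed genes of latent TGF-beta and microfibrils were measured, and 7 rose and none fell with Wee1 inhibitor II, 4 rose and 1 fell with 17-AAG, and 6 rose and 1 fell with both drugs. LTBP3, a binding protein of latent TGF-beta, had signals of 47.1, 91.9, 51.7 and 90.3 in the order control, Wee1 inhibitor II, 17-AAG and both drugs. It rose by 0.96 ± 0.15 with Wee1 inhibitor II (limma adjusted p = 0.00275) and by 0.94 ± 0.15 with both drugs (0.00239). The first of these was not called when its groups were fitted alone. LTBP3, like LTBP2, was therefore high on the arrays with Wee1 inhibitor II whether or not 17-AAG was present. LTBP1 and LTBP4 did not share that pattern. LTBP1 was at 629 to 673 with Wee1 inhibitor II alone and 746 to 916 with 17-AAG alone. For LTBP4 the arrays of 17-AAG alone overlapped those of both drugs. EFEMP2, which takes part in elastic fibre assembly, rose by 1.21 ± 0.19 with Wee1 inhibitor II (limma adjusted p = 0.00258).

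Of the genes that TGF-beta induces, 17 of 18 were measured beside TGFBI. With Wee1 inhibitor II 6 rose and 1 fell, where 14.5% and 10.3% of all genes did. With 17-AAG none rose and 5 fell (9.93% and 6.8% of all genes), and with both drugs 2 rose and 4 fell (16.7% and 11.3%). THBS1, an activator of latent TGF-beta, had signals of 5441, 6728, 2311 and 2111 in the same group order, and fell by 1.24 ± 0.11 with 17-AAG (limma adjusted p = 0.000562) and by 1.37 ± 0.11 with both drugs (7.35e-05). TPM1, a tropomyosin, fell by 1.36 ± 0.09 with 17-AAG (limma adjusted p = 0.000226). CCN2, a matricellular protein, was at 104, 341, 86.7 and 96.3, rose by 1.71 ± 0.10 with Wee1 inhibitor II (limma adjusted p = 4.5e-05) and had an interaction of -1.56 ± 0.13 (0.000868). CCN2 was thus high with Wee1 inhibitor II alone, where TGFBI overlapped control.

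Around MGP, 17 of 19 listed genes were measured, of Gla proteins, their carboxylation, BMPs, BMP antagonists and calcification (SPP1, ALPL, ENPP1 and ANKH). With Wee1 inhibitor II 3 rose and none fell, with 17-AAG 2 rose and 1 fell, and with both drugs 2 rose and none fell. PROS1, the Gla protein known as protein S, had signals of 1178, 2287, 1948 and 2249 in the order control, Wee1 inhibitor II, 17-AAG and both drugs, and rose by 0.96 ± 0.09 with Wee1 inhibitor II (limma adjusted p = 0.000267). GGCX, the carboxylase that modifies Gla proteins, was at 413 in controls and 308 with Wee1 inhibitor II and was not called against control in any drug group. PROS1 and MGP, both Gla proteins, thus stood on opposite sides of control with Wee1 inhibitor II.

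Around NTN4, all 14 listed netrins, receptors and laminin chains were measured, and 3 rose and none fell in each drug group. LAMB1, a laminin chain of basement membranes, was at 1021, 2045, 1323 and 1578 and rose by 1.00 ± 0.09 with Wee1 inhibitor II (limma adjusted p = 0.00021). LAMC1, the other laminin chain listed, was at 572 and 1005 in the controls, and every drug group overlapped them. UNC5C, a netrin receptor, was dim, at 16.2 in controls and 43.1 with Wee1 inhibitor II, where it rose by 1.41 ± 0.22 (limma adjusted p = 0.00224). With the floor of 32 the UNC5C value was 0.43, with the mean of its probe sets it was 0.94, and neither was called.

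Around DKK1, 18 of 18 listed Wnt antagonists and receptors were measured, and 5 rose and none fell with Wee1 inhibitor II, 4 rose and none fell with 17-AAG, and 4 rose and 1 fell with both drugs. APCDD1, a membrane-bound Wnt inhibitor, was at 28.7, 109, 152 and 129 in the order control, Wee1 inhibitor II, 17-AAG and both drugs. It rose by 1.92 ± 0.14, 2.40 ± 0.14 and 2.17 ± 0.14 in the 3 drug groups (limma adjusted p = 9.53e-05, 0.000226 and 3.11e-05). APCDD1 was thus high where DKK1 was lowest, with 17-AAG alone. KREMEN1, a receptor that DKK1 binds, was at 79.4, 201, 132 and 195 and rose by 1.34 ± 0.13 with Wee1 inhibitor II (limma adjusted p = 0.000309), and averaging its probe sets gave 0.72, not called. LRP6, the co-receptor that DKK1 blocks, was at 237, 375, 416 and 385 and rose by 0.66 ± 0.14 with Wee1 inhibitor II (limma adjusted p = 0.0101).

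Of the Wnt target genes, 11 of 12 were measured, and 4 rose and 1 fell with Wee1 inhibitor II, 3 rose and none fell with 17-AAG, and 4 rose and 1 fell with both drugs. TNFRSF19, a receptor of the TNF receptor family, was at 700.1, 1093, 1059 and 1174 and rose by 0.64 ± 0.11 with Wee1 inhibitor II (limma adjusted p = 0.00426), which was 0.42 and not called with each array centred on its median. CCND1, cyclin D1, was at 994, 1850.1, 940 and 1297 and rose by 0.90 ± 0.08 with Wee1 inhibitor II (limma adjusted p = 0.000268). TNFRSF19 was thus above control in every drug group, whereas DKK1 was above control with Wee1 inhibitor II alone and below it in the others.

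Around MMP8, all 21 listed metalloproteinases were measured, and 3 rose and 1 fell with Wee1 inhibitor II, none rose and 1 fell with 17-AAG, and none rose and 1 fell with both drugs. MMP1, an interstitial collagenase, was at 30.6, 112, 8.20 and 31.8 and rose by 1.87 ± 0.25 with Wee1 inhibitor II (limma adjusted p = 0.0012). It fell by 1.90 ± 0.25 with 17-AAG (limma adjusted p = 0.00236), a value of -0.06 with the floor of 32. Unlike MMP8, MMP1 was above control with Wee1 inhibitor II. MMP16, a membrane-bound metalloproteinase, was at 222, 117, 175 and 92.3 and fell by 0.93 ± 0.12 with Wee1 inhibitor II (limma adjusted p = 0.00118).

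Of the metalloproteinase inhibitors 5 of 5 were measured, and 2 rose and none fell with Wee1 inhibitor II, 1 rose and 1 fell with 17-AAG, and 2 rose and none fell with both drugs. TIMP3, a matrix-bound inhibitor, was at 714, 1162, 449 and 625 and rose by 0.70 ± 0.14 with Wee1 inhibitor II (limma adjusted p = 0.00665). That call was lost with each array centred on its median (0.48) and with the mean of the probe sets (0.42). Its fall with 17-AAG, by 0.67 ± 0.14 (limma adjusted p = 0.0128), was -0.72 without control replicate 1 and -0.62 without control replicate 3, and it was not called in either case. RECK, a membrane-anchored inhibitor, was at 87.6, 191, 107 and 214 and rose by 1.12 ± 0.13 with Wee1 inhibitor II (limma adjusted p = 0.000727), but the mean of its probe sets gave 0.01.

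**Figure D5:**
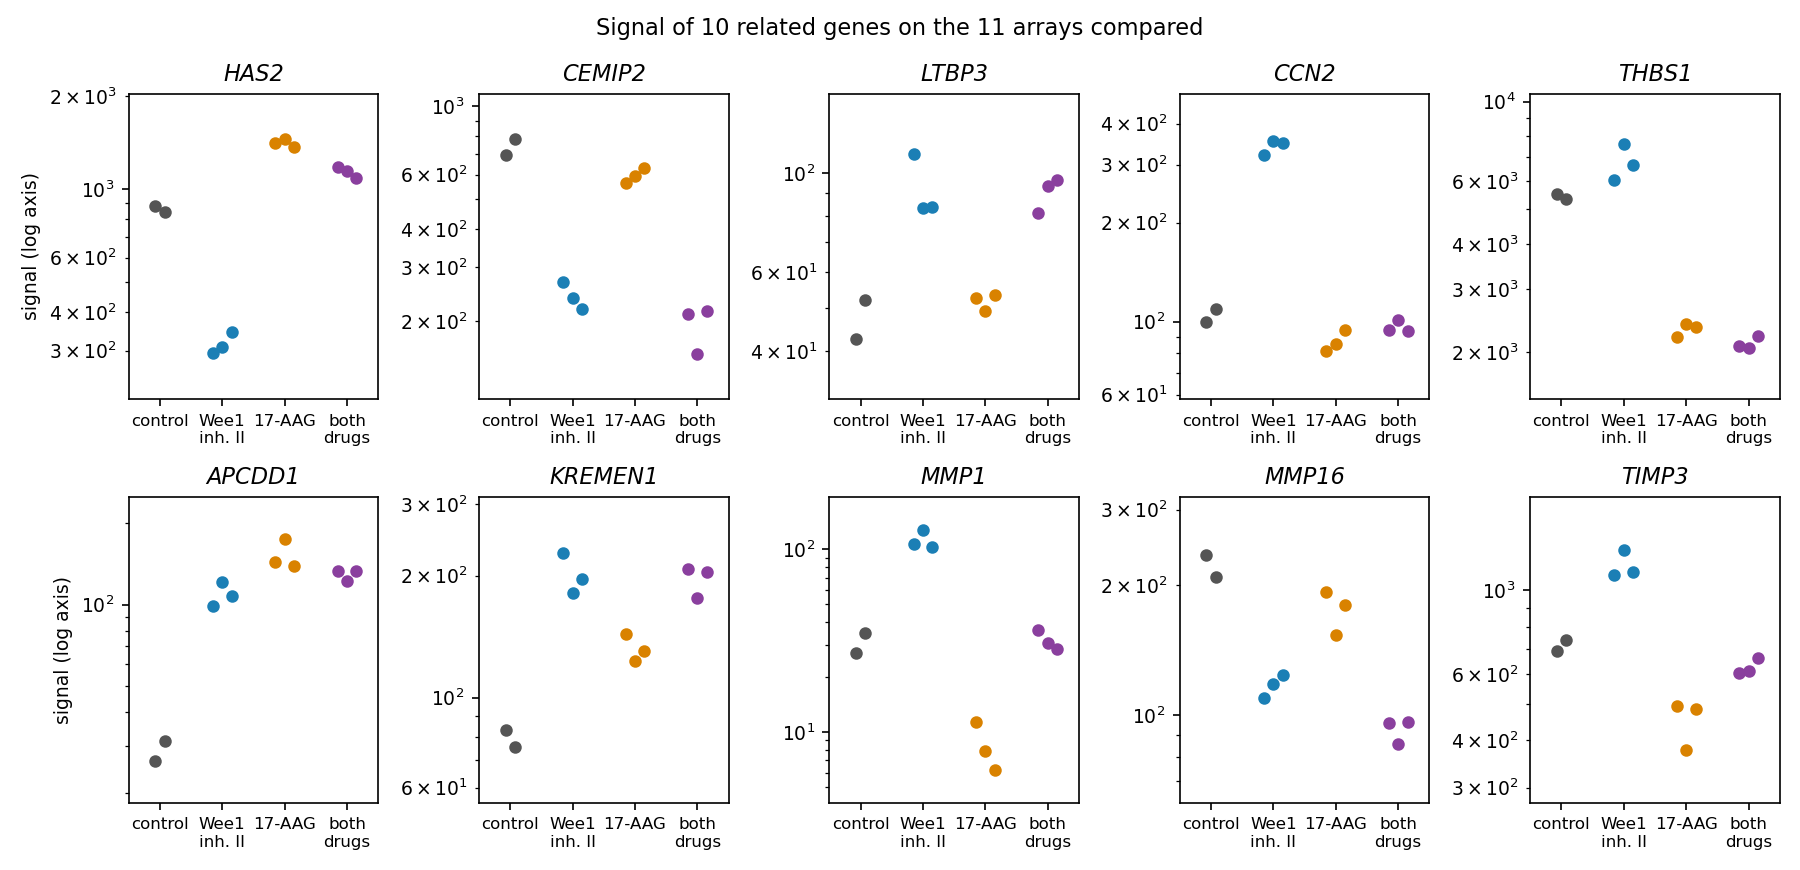
Signal of HAS2, CEMIP2, LTBP3, CCN2, THBS1, APCDD1, KREMEN1, MMP1, MMP16 and TIMP3 on each of the 11 arrays compared, by group, on log axes with a scale of their own for each gene. HAS2 was lowest with Wee1 inhibitor II, at a group mean of 315, and APCDD1 was lowest in controls, at 28.7.

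Markers of other cells and of RNA quality moved with some groups. Summed signals of 8 fibroblast markers were 1099 to 1248 in controls, 440 to 506 with Wee1 inhibitor II, 1801 to 1943 with 17-AAG and 795 to 863 with both drugs, and 1 marker was called in each drug group, lower, higher and lower than control. The sums were carried by LUM, itself a matrix gene, at 294 to 1819, while the other 7 markers were at most 109. Summed signals of the 8 prostate epithelial markers were 808 to 875 in controls, 673 to 836 with Wee1 inhibitor II, 853 to 913 with 17-AAG and 1281 to 1364 with both drugs, highest in the group where CEMIP was highest. ESRP1, among the genes closest to CEMIP in profile, was one of the 8. Its signal was 288, 165, 303 and 666 in the same group order, while HOXB13 was at most 11.3 and EPCAM at most 26.2. Of the 8, 1 was called higher with both drugs, 2 lower with Wee1 inhibitor II and none with 17-AAG. CTNNA1 and STAT3 summed to 3719.7 to 3811 in controls, 5873 to 6278 with Wee1 inhibitor II, 3533 to 3631 with 17-AAG and 3468 to 3679 with both drugs. Summed pigment cell markers were 34111 to 35328 in controls, 29446 to 31812 with Wee1 inhibitor II, 41775 to 47163 with 17-AAG and 49550.2 to 51082 with both drugs. Pigment markers called numbered 2 higher and 3 lower of 7 with Wee1 inhibitor II, 5 higher with 17-AAG and 7 higher with both drugs. The 10 blood cell markers, set beside MMP8 as a gene of neutrophils, had signals of at most 32.1 on the 11 arrays. Their sums were 68.5 to 97.2 in controls, 57.4 to 110 with Wee1 inhibitor II, 72.0 to 83.1 with 17-AAG and 89.9 to 118 with both drugs, and none was called against control. The gap between the 3-prime and 5-prime ACTB probe sets was 0.69 ± 0.03 (SD, n = 2; log2) in controls, 0.68 ± 0.09 (n = 3) with Wee1 inhibitor II, 0.96 ± 0.08 (n = 3) in cells given 17-AAG and 0.96 ± 0.05 (n = 3) in those given both. The part of these shifts in the members' values was not tested.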

How the data were processed

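RNA of 12 samples labelled PC3 was measured on Affymetrix 3-prime arrays. The authors deposited linear intensity values per probe set. Partek 6.5 and RMA are named in the submitters' processing notes, and how they were applied is not given in the sources used here. The values have a 2% trimmed mean of 150 on every array, unlike the log2 values RMA gives. A log2 transform was applied here, with no further normalisation. Control replicate 2 was left out, as by the authors.

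Of 54675 probe sets 41091 carried 1 gene symbol, and each of 19775 genes was represented by its probe set of highest mean level on the 11 arrays. Group means were fitted with limma 3.58.1 in R 4.3.3 over 11 arrays, on 7 residual degrees of freedom, with Benjamini-Hochberg adjustment over all genes and calls at 0.05. The procedure was tested on simulated data. The interaction is both drugs minus 17-AAG, less Wee1 inhibitor II minus control. Errors of differences are standard errors of the fit.

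The members and lists were chosen with earlier results of these data known. Besides the members, the rule named up to 4 called genes of each list with the smallest p, genes of a defining ligand or receptor, and for each member the 3 most similar genes with a group signal of at least 100. Some were left out for length. The precision is limited by the number of arrays. Alternatives were control replicate 2 included, the replicate number as a block, quantile normalisation, median centring, a floor of 32, leaving out the dimmest 40% of genes, the mean of or each other probe set, trended and robust empirical Bayes, a fit of only the groups compared, and each array left out in turn. Same-numbered arrays of different groups had correlations of their deviations from -0.137 to 0.0958, so the numbers were not taken to pair samples.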

Additional observations from a re-analysis of the deposited data

Results flagged for a closer look

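On its main probe set, CEMIP went in opposite directions with Wee1 inhibitor II in the absence and presence of 17-AAG: the log2 difference was -1.24 against control, with all 3 arrays below both controls, and 2.62 against 17-AAG alone, with all 3 arrays above. The lower value lay in the dim range: with the floor of 32 it was -0.47, and the second probe set gave 0.03 ± 0.66. The higher value was 2.62 with the floor and 3.10 with the second probe set. The change of direction was not tested, since CEMIP was chosen for it.

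For 4 related genes the effect of Wee1 inhibitor II differed by the presence of 17-AAG in limma's interaction term (Benjamini-Hochberg adjusted p = 0.00174 for HAS2, 0.000868 for CCN2, 0.00714 for UNC5C and 0.000961 for APCDD1). The interaction was 1.14 for HAS2, -1.56 for CCN2, -1.80 for UNC5C and -2.16 for APCDD1 (log2). The UNC5C interaction was no longer called with the floor of 32 (-0.66) or with the mean of its probe sets (-0.78). With control replicate 2 included none of these genes was called (0.29 for HAS2, -0.37 for CCN2, -1.64 for UNC5C and -4.06 for APCDD1). Among the 138 related genes 2 were called positive and 13 negative for the interaction, beside 4.82% and 6.97% of all genes. Nothing is read from that count.

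Control replicate 2, which no comparison used, carried signals above those of the other controls for 4 members: 277 for CEMIP, 134 for LTBP2, 1640 for NTN4 and 9950 for DKK1. On it MMP8 was at 6.80, TGFBI at 12.1 and MGP at 3.61, below the other controls.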

How the results depend on the processing

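Member differences kept their sign under quantile normalisation, median centring, the mean of the probe sets, trended and robust empirical Bayes and a fit of only the groups compared. With the replicate number as a block no member difference moved by more than its SD within groups (NTN4 with 17-AAG was -1.61), and the check of the deviations did not show that the numbers pair the samples. Low signal, 2 controls and 1 probe set for 3 members limit the folds. With control replicate 2 included, whose lineage markers differ, signs turned for MMP8 (Wee1 inhibitor II 0.15, 17-AAG 0.38, interaction -0.59), NTN4 (both drugs -0.09), LTBP2 (interaction 0.07), DKK1 (interaction 1.66), TGFBI (Wee1 inhibitor II 0.23), CEMIP (17-AAG -0.54), MGP (17-AAG 0.40, interaction -0.94), HMMR (Wee1 inhibitor II 0.06, 17-AAG 0.11), FST (Wee1 inhibitor II -1.46), TIMP3 (17-AAG 2.33), TNFAIP6 (both drugs 1.22), CCND1 (both drugs -0.09, interaction 0.04) and LEF1 (both drugs 1.89). With it, 3 members were past 2-fold with Wee1 inhibitor II and 3 with 17-AAG, and related genes called numbered 13 instead of 39 with Wee1 inhibitor II, 7 instead of 27 with 17-AAG, 11 instead of 33 with both drugs, 2 instead of 25 for both drugs against 17-AAG, 3 instead of 19 for both drugs against Wee1 inhibitor II, 6 instead of 36 for Wee1 inhibitor II against 17-AAG, and 0 instead of 15 for the interaction (limma with Benjamini-Hochberg; 23 at an unadjusted p under 0.05). The floor of 32 turned the LTBP2 interaction to 0.15, the MMP1 interaction to -1.69, the NTN4 interaction to -0.46 and MGP with 17-AAG to 0.10, with an MGP interaction of -0.10, and left 3 members past 2-fold with Wee1 inhibitor II, 2 with 17-AAG, 3 with both drugs, 2 for both drugs against 17-AAG and 2 for Wee1 inhibitor II against 17-AAG. Without the dimmest 40% of genes, which removes members, 3 were past 2-fold with 17-AAG, 3 with both drugs, 3 for both drugs against 17-AAG and 3 for Wee1 inhibitor II against 17-AAG, and related genes called numbered 26 for the interaction and 29 for both drugs against Wee1 inhibitor II. Other probe sets gave CEMIP 0.03 with Wee1 inhibitor II and 0.32 for Wee1 inhibitor II against 17-AAG, LTBP2 an interaction of 0.12, and MGP 0.53 for both drugs against 17-AAG and 0.14 for Wee1 inhibitor II against 17-AAG. Interaction calls were 9 after median centring, 8 with the mean of the probe sets and 24 with trended and robust empirical Bayes. The mean of the probe sets gave 15 calls with 17-AAG, 14 for both drugs against 17-AAG and 18 for Wee1 inhibitor II against 17-AAG. Fits of only the groups compared called 25 with Wee1 inhibitor II and 0 with 17-AAG (limma with Benjamini-Hochberg; 39 at an unadjusted p under 0.05). Leaving out 1 array at a time gave 13 to 28 calls with 17-AAG, 9 to 14 for the interaction, 23 to 31 for Wee1 inhibitor II against 17-AAG, and -2.79 to 0.03 for NTN4 with 17-AAG. Calls over all 19775 genes also fell with control replicate 2 included. They numbered 1268 with Wee1 inhibitor II, 480 with 17-AAG, 1856 with both drugs and 119 for the interaction. Without that array 2877 were higher and 2045 lower, 1964 and 1345, 3306 and 2233, and 953 and 1378, in the same order. The fall in calls was thus not particular to the related genes. The causes of these shifts with the processing were not tested.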
